A study of Homo sapiens with 12 samples.

Results

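The vesicle miRNAs of the human colorectal cancer line MDST8 were compared with those of 2 other lines, Hutu80 and Car-1, by setting the MDST8 mean against the mean of the Hutu80 and Car-1 means. The members are 6 of the 12 libraries in the series: MDST8 replicates 1 and 2, Hutu80 replicates 1 and 2, and Car-1 replicates 1 and 2. The libraries were taken by line name and not by a threshold on measured values. All the lines are untreated and carry the same label, colorectal cancer (CRC), although HuTu 80 is catalogued as a line from a duodenal adenocarcinoma. Each line stands for a single tumour, and no label tells whether a line's libraries were made from independent cultures. The p-values below therefore rest on the spread between such libraries, which may be technical. The medium of all lines was DMEM/F12 supplemented with fetal bovine serum, from which extracellular vesicles were isolated by ultrafiltration and size-exclusion chromatography. The series was set up around lines of consensus molecular subtypes 2 and 4, but no label ties a line to a subtype.

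Extracellular vesicles are membrane-bound particles released by cells. MicroRNAs (miRNAs) are short RNAs cut from a hairpin precursor, which has a 5p and a 3p arm. They repress messenger RNAs to which they pair, and the pairing rests mainly on the seed, bases 2 to 8 of the mature miRNA. miRNAs with the same seed form a family with largely shared targets, even where their genes lie on different chromosomes and answer to different promoters. In gut epithelium the best known families are miR-200 (miR-200a, miR-200b, miR-200c, miR-141 and miR-429), which represses the factors ZEB1 and ZEB2 that drive epithelial cells toward a mesenchymal state, and the family of miR-192, miR-194 and miR-215.

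The sequences below are those on which the results turn, from the RefSeq table of build GRCh38.p14, with the seed in capitals. The first set holds the most raised miRNA of high abundance and the miR-29 family, which shares a seed and rose as a whole.
miR-146a-5p: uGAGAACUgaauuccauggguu
miR-29a-3p: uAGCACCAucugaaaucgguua
miR-29b-3p: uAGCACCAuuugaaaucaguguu
miR-29c-3p: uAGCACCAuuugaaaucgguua

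The next set holds families in which members with an identical seed were called in opposite directions against the mean of Hutu80 and Car-1. For miR-23 and miR-27 the comparisons with each line alone differed, as given below. In order, they are the families of miR-148 and miR-152, of miR-25, miR-92 and miR-363, of miR-23 and of miR-27.
miR-148b-3p: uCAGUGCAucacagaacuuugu
miR-152-3p: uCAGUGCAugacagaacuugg
miR-148a-3p: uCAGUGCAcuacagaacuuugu
miR-25-3p: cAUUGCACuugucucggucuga
miR-92a-3p: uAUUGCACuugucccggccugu
miR-92b-3p: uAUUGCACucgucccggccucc
miR-363-3p: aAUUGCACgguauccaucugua
miR-23a-3p: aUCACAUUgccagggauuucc
miR-23b-3p: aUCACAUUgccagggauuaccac
miR-27a-3p: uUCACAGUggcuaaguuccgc
miR-27b-3p: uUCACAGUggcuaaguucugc

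The third set holds members of the miR-200 family with a shared seed, the squamous miRNA miR-205-5p, and arms, most of them the rarer one of their hairpin, that were at low levels in MDST8.
miR-200b-3p: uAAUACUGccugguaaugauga
miR-200c-3p: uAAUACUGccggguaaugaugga
miR-429: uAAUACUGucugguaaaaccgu
miR-205-5p: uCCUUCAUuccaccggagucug
miR-92a-1-5p: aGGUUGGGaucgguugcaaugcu
miR-92a-2-5p: gGGUGGGGauuuguugcauuac
miR-363-5p: cGGGUGGAucacgaugcaauuu
miR-365a-5p: aGGGACUUuugggggcagaugug
miR-365b-5p: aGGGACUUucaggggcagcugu
miR-92b-5p: aGGGACGGgacgcggugcagug
miR-128-1-5p: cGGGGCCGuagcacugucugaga
miR-345-3p: gCCCUGAAcgaggggucuggag

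Some of these sequences are close to identical. Over the shared length, miR-29a-3p and miR-29c-3p differ at 1 base, as do miR-23a-3p and miR-23b-3p, and miR-27a-3p and miR-27b-3p. How the authors' counting assigned reads to such pairs is not given in the sources used here, so the split within a pair is uncertain. miR-92a-3p comes from 2 hairpins, one at chr13:91351314-91351391 and another on chromosome X, and its counts cannot be divided between them.

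The MDST8 libraries held 339853 and 306811 counts, those of Hutu80 71831 and 100531, and those of Car-1 172774 and 137766. Each count corresponded to 2.94 to 3.26 CPM (the count as a share of all counts in its library, brought to a fixed sum) in MDST8 and up to 13.9 CPM in Hutu80, and low values are least precise in Hutu80. Spearman correlations over the 318 tested miRNAs were 0.935 to 0.952 between replicates of these lines, 0.717 to 0.758 between MDST8 and the other 2 lines, and 0.825 to 0.871 between Hutu80 and Car-1. These are descriptions across miRNAs, which are not independent replicates. In what follows a level is CPM after scaling by trimmed-mean (TMM) factors, given for replicate 1 and then replicate 2 of each line. A level is a share of the counted miRNAs, so fewer vesicles and less RNA per vesicle cannot be told apart.

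The comparison asked which vesicle miRNAs set MDST8 apart from Hutu80 and Car-1. Among the most abundant miRNAs, miR-146a-5p, miR-29a-3p, miR-10b-5p, miR-181a-5p, miR-100-5p, miR-221-3p and miR-222-3p were higher in MDST8, while miR-92a-3p, miR-30a-3p, miR-200b-3p and miR-200c-3p were lower. Of these, miR-30a-3p did not pass against Car-1 alone. In edgeR's quasi-likelihood F-test with Benjamini-Hochberg adjustment, 143 of 318 miRNAs passed an adjusted p of 0.05, which is 45% of those tested. Of these, 61 were higher in MDST8 (19.2%) and 82 lower (25.8%), and 166 had an unadjusted p below 0.05. The size of the difference had a median of 1.86 on the log2 scale among the higher miRNAs and 2.38 among the lower ones, with 28 and 48 of them at 2 or more, which is 4-fold. Both MDST8 libraries lay above all 4 libraries of the other lines for 72 miRNAs (22.6%) and below all 4 for 92 (28.9%). The median log2 difference of all tested miRNAs was -0.39, and differences below are relative to a zero that depends on the scaling. Scaling by library totals alone moved it to -0.82 and gave 41 higher and 115 lower miRNAs. Leaving out the 10 most abundant miRNAs moved it to -0.15 and gave 75 higher and 65 lower. Leaving out 1 library also moved the median and the balance. Without Car-1 replicate 2 the median was 0.06, with 84 higher and 50 lower of 389 tested, and without Hutu80 replicate 2 it was 0.06, with 82 and 54 of 383. Without Hutu80 replicate 1 it was 0, with 80 and 61 of 387, and without Car-1 replicate 1 it was -0.01, with 76 and 55 of 388. Taking the 4 Hutu80 and Car-1 libraries as 1 group, which counts the difference between those lines as spread, gave 38 higher and 43 lower of 281 tested. Among the calls it ended were those of miR-21-5p (adjusted p = 0.0696), miR-125b-5p (0.118), miR-182-5p (0.172), miR-30a-3p (0.08), miR-205-5p (0.0656) and miR-1262 (0.104). It also ended those of miR-200b-3p (0.0595) and miR-200c-3p (0.0583).

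**Figure D1:**
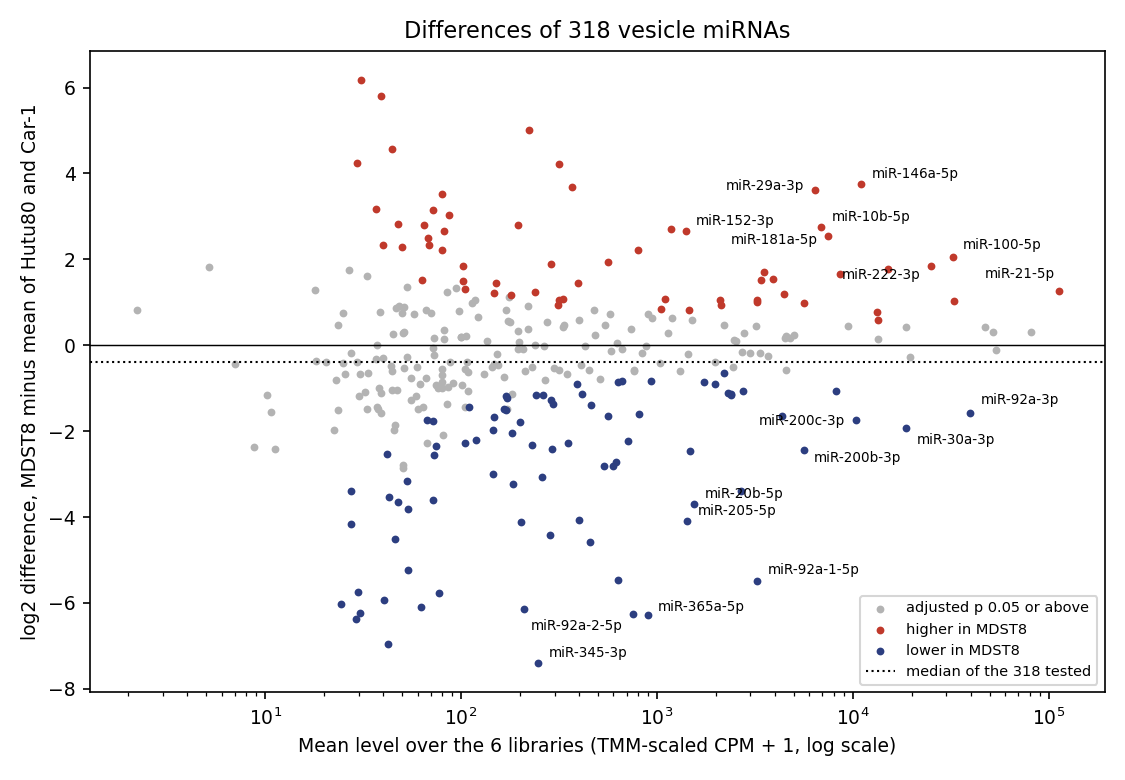
Log2 difference of each of the 318 tested miRNAs, MDST8 minus the mean of Hutu80 and Car-1, against its mean level over the 6 libraries (TMM-scaled CPM + 1, log axis). Red points are the 61 higher and blue points the 82 lower miRNAs at an adjusted p below 0.05, grey points the rest, and the dotted line is the median of all tested, -0.39; the largest differences below zero reach -7.41 and are mostly miRNAs of low abundance.

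Against each line alone the counts were of the same order. MDST8 had 55 higher (17.3%) and 82 lower (25.8%) miRNAs against Hutu80, 43.1% in all, and 61 higher (19.2%) and 71 lower (22.3%) against Car-1, 41.5% in all. Hutu80 against Car-1 gave 31 higher (9.75%) and 27 lower (8.49%), 18.2% in all. The MDST8 comparisons share the MDST8 libraries. Of the called miRNAs, 59 of the 61 higher and 69 of the 82 lower also had both MDST8 libraries outside the range of the other 4. Of those, 54 higher and 54 lower reached a mean of 100 CPM on their high side, and these are the ones from which the strongest differences are named.

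Among the 15 strongest of the higher miRNAs, miR-146a-5p stood out by abundance. It is induced through NF-kB and damps signalling downstream of Toll-like receptors, and its hairpin lies at chr5:160485352-160485450 (GRCh38) and overlaps an exon of MIR3142HG, a long non-coding RNA. Its level was 28392 and 29299 CPM in MDST8, against 2079 and 1806 CPM in Hutu80 and 2133 and 2619.9 CPM in Car-1. The replicates of a line lay close together and the lines did not overlap. The log2 difference was 3.75 ± 0.26 (SE, adjusted p = 7.48e-11), with 3.89 ± 0.34 against Hutu80 and 3.60 ± 0.33 against Car-1. miR-146a-5p took 2.63% and 3.04% of MDST8 counts, against 0.265% and 0.214% in Hutu80 and 0.304% and 0.380% in Car-1.

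The miR-29 family, whose known targets include messages for collagens and other matrix proteins, rose with all 3 tested 3p arms, which share the seed. A tested 5p arm, miR-29b-1-5p, is not on the list and did not pass (adjusted p = 0.376). miR-29a-3p, from chr7:130876747-130876810 on the minus strand, was at 16455 and 16572 CPM in MDST8, against 1192 and 1125 CPM in Hutu80 and 1764 and 1359.9 CPM in Car-1. This is a gap between the lines of more than 9 times in every pair of libraries, with a log2 difference of 3.62 ± 0.26 (adjusted p = 8.03e-11). miR-29b-3p had 543 and 364 CPM in MDST8, against 32.8 and 75.6 CPM in Hutu80 and 77.2 and 70 CPM in Car-1, a log2 difference of 2.81 ± 0.43 (adjusted p = 1.04e-05). miR-29c-3p had 225 and 169.6 CPM in MDST8, against 21.9 and 0 CPM in Hutu80 and 32.5 and 25 CPM in Car-1, with 3.51 ± 0.72 (adjusted p = 0.000394). The levels of miR-29a-3p and miR-29c-3p, which differ at 1 base, carry the uncertainty of the split named above. The summed level of the family was 17223 and 17106 CPM in MDST8, against 1247 and 1201 CPM in Hutu80 and 1873 and 1455 CPM in Car-1. The difference of miR-29c-3p was 5.87 without Hutu80 replicate 1 and that of miR-29b-3p 3.47 without Hutu80 replicate 2, both still past the threshold.

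miR-10b-5p, encoded in the HOXD cluster, had 17658 and 14295 CPM in MDST8, against 2910.1 and 2343 CPM in Hutu80 and 1999 and 2339.9 CPM in Car-1. Its log2 difference was 2.74 ± 0.22 (adjusted p = 7.03e-10), and the MDST8 libraries were also above the other 6 libraries of the series (4863 to 7053 CPM). miR-34a-5p, a direct target of p53 that restrains the cell cycle, had 3251 and 2174 CPM in MDST8, against 394 and 638 CPM in Hutu80 and 443 and 210.0 CPM in Car-1. It was higher in MDST8 by 2.71 ± 0.35 (adjusted p = 1.06e-06), and the other 6 libraries held 113 to 299 CPM. miR-31, which is raised in a subset of colorectal tumours, rose with both arms. miR-31-5p had 1699 and 1586 CPM in MDST8, against 427 and 655 CPM in Hutu80 and 236 and 220.0 CPM in Car-1, a log2 difference of 2.22 ± 0.31 (adjusted p = 3.24e-06), and its much rarer partner miR-31-3p had 229 and 182.2 CPM in MDST8, against 10.9 and 58.8 CPM in Hutu80 and 4.06 and 30 CPM in Car-1, with 3.04 ± 0.73 (adjusted p = 0.00179). The difference of miR-31-3p was 4.33 without Car-1 replicate 2 and 4.15 without Hutu80 replicate 2.

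Several other miRNAs were at low levels in Hutu80 and Car-1. miR-708-5p had 492 and 751 CPM in MDST8, against 21.9 and 8.4 CPM in Hutu80 and 28.4 and 20 CPM in Car-1, which rests on 155 and 239 counts in MDST8 and 1 to 7 counts in each of the other libraries. Its fitted log2 difference was 5.01 ± 0.55 (adjusted p = 8.78e-08). miR-1269b had 721 and 971 CPM in MDST8, against 87.5 and 33.6 CPM in Hutu80 and 28.4 and 40 CPM in Car-1, with 4.23 ± 0.43 (adjusted p = 3.19e-08). miR-455-3p, encoded in an intron of the collagen gene COL27A1 (chr9:114209434-114209529), had 654 and 1247 CPM in MDST8, against 32.8 and 67.2 CPM in Hutu80 and 114 and 95 CPM in Car-1, with 3.69 ± 0.42 (adjusted p = 1.47e-07). The MDST8 libraries were above all 10 others of the series for these 3 miRNAs. Without Hutu80 replicate 1 the difference of miR-708-5p was 5.71 and that of miR-1269b 4.95, and without Hutu80 replicate 2 that of miR-455-3p was 4.32. For miR-296-3p the counts were 30 and 38 in MDST8 and 3 in all 4 other libraries together, a ratio of pooled unscaled CPM of 16.9 (95% interval 5.55 to 84.1). For miR-3609 they were 27 and 50 against 3, a ratio of 19.2 (95% interval 6.32 to 95). These intervals cover counting error only. The remaining ones among the 15 were miR-190a-5p, miR-138-5p and miR-378g, at means of 172 CPM in MDST8, 15.1 CPM in Hutu80 and 25.6 CPM in Car-1 for the first, 109 CPM in MDST8, 15.1 CPM in Hutu80 and 15.2 CPM in Car-1 for the second and 141 CPM in MDST8, 41.6 CPM in Hutu80 and 9.06 CPM in Car-1 for the third. miR-138-5p lost its call without MDST8 replicate 2 (adjusted p = 0.0758), and its difference was 3.52 without Hutu80 replicate 1.

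**Figure D2:**
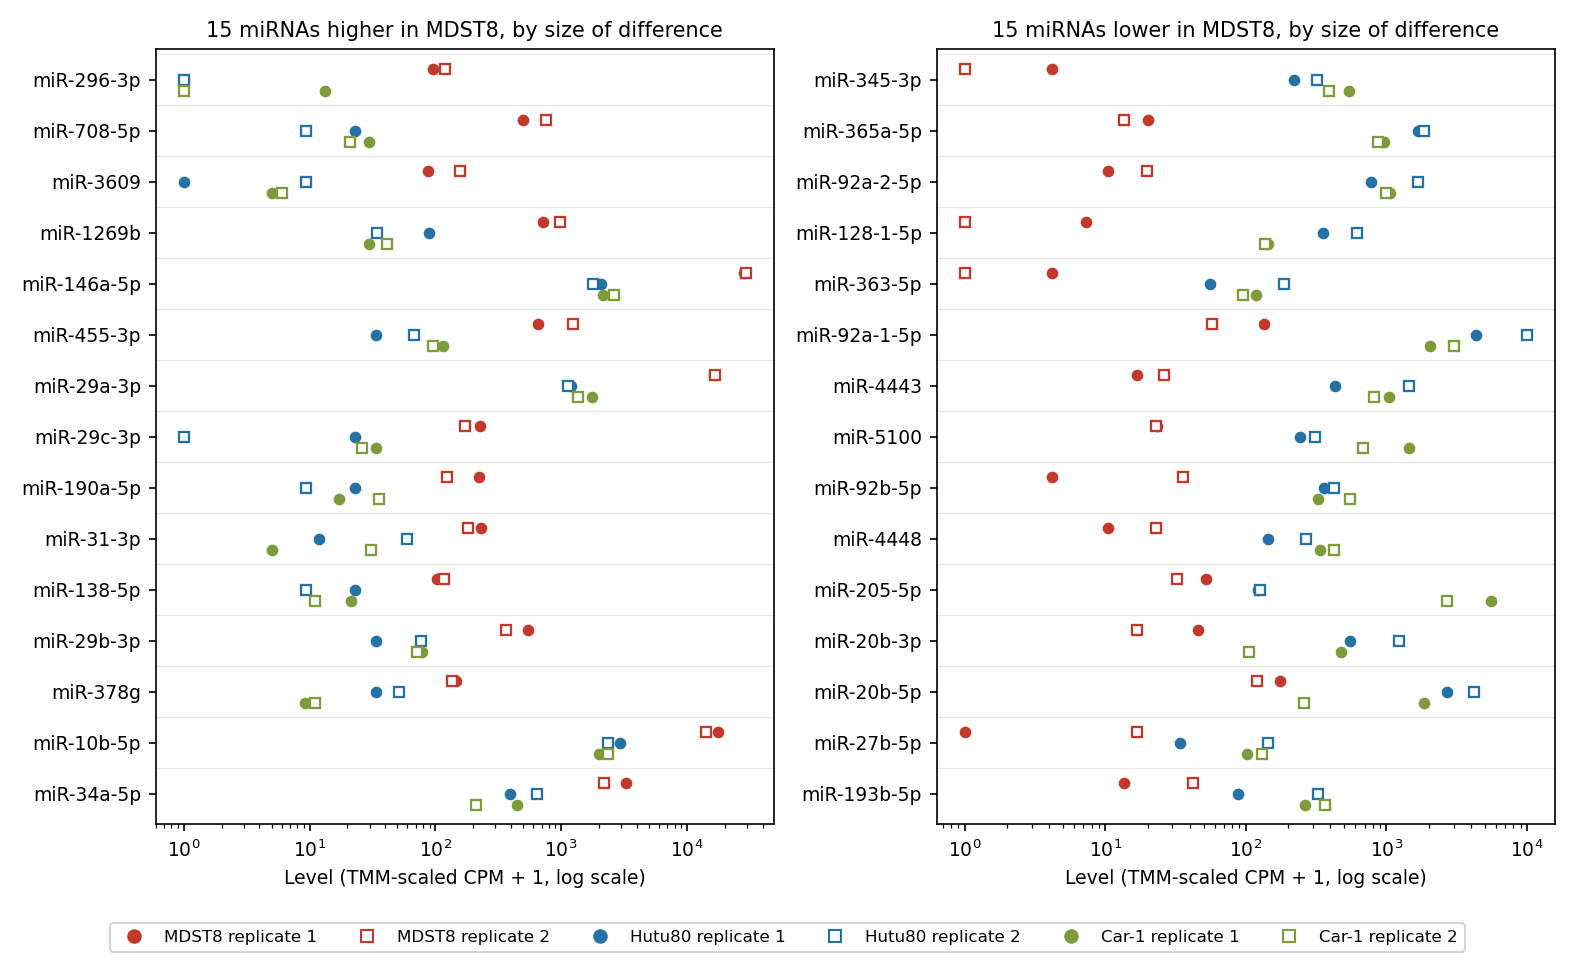
Level of the 15 miRNAs with the largest positive (left) and negative (right) log2 difference in each of the 6 libraries (TMM-scaled CPM + 1, log axis; circles replicate 1, squares replicate 2). MDST8 points lie right of the 4 others in the left panel and left of them in the right panel, as the naming rule requires, and the Car-1 replicates of miR-20b-5p stand well apart (1845 and 260.0 CPM).

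The most abundant miRNAs of MDST8 vesicles were partly shared with the other lines. miR-21-5p, an abundant miRNA in many carcinomas, was the largest, with 20.1% and 15.3% of counts in MDST8, against 7.32% and 6.83% in Hutu80 and 18.5% and 9.68% in Car-1. In scaled terms it had 216698 and 147209 CPM in MDST8, against 57557 and 57651 CPM in Hutu80 and 130090.0 and 66646 CPM in Car-1. It was higher in MDST8 by 1.27 ± 0.26 (adjusted p = 0.000394), with the smaller difference, 0.89, against Car-1 (adjusted p = 0.027). miR-100-5p, whose known targets include mTOR, had 58138 and 68738 CPM in MDST8, against 9682 and 10314 CPM in Hutu80 and 25414 and 21924 CPM in Car-1, a log2 difference of 2.04 ± 0.23 (adjusted p = 1.13e-07). The other 6 libraries of the series held 2685 to 6500.3 CPM of it.

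miR-221 and miR-222, neighbours on chromosome X that share a seed and target the cell cycle inhibitor p27, were also higher. miR-222-3p had 41447 and 54522 CPM in MDST8, against 10710.5 and 10532 CPM in Hutu80 and 14649.5 and 19184 CPM in Car-1, with 1.84 ± 0.23 (adjusted p = 7.12e-07). miR-221-3p had 27881 and 29114 CPM in MDST8, against 7242 and 8038 CPM in Hutu80 and 9294 and 8819.5 CPM in Car-1, with 1.78 ± 0.21 (adjusted p = 2.65e-07). Their summed level was 69329 and 83635 CPM in MDST8, against 17953 and 18570.1 CPM in Hutu80 and 23943 and 28004 CPM in Car-1, so both MDST8 values were more than 2 times the highest of the 4 others. The rarer arm miR-221-5p passed as well, at 1.05 ± 0.26 (adjusted p = 0.0023), but not with library totals as the only scaling (0.61 (adjusted p = 0.0688)).

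Of the 10 largest miRNAs of MDST8, 4 gave no call. miR-10a-5p averaged 92782 ± 15085 CPM in MDST8, 88036 ± 3204 CPM in Hutu80 and 63960.5 ± 10480.4 CPM in Car-1 (SD, n = 2), with a log2 difference of 0.31 ± 0.22 (adjusted p = 0.275). let-7f-5p averaged 59754 ± 15000.1 CPM in MDST8, 49374 ± 2785 CPM in Hutu80 and 47670.4 ± 15148 CPM in Car-1, with 0.30 ± 0.25 (adjusted p = 0.336). let-7a-5p averaged 56563 ± 422 CPM in MDST8, 37883 ± 2656 CPM in Hutu80 and 47329 ± 22016 CPM in Car-1, with 0.42 ± 0.27 (adjusted p = 0.205). For these 3 the test did not separate the difference from the spread between libraries, which does not show that the levels were equal. miR-30a-5p differed in the opposite sense from the separate lines, with 49959 and 39099 CPM in MDST8, against 94579 and 89390.4 CPM in Hutu80 and 35813 and 14209 CPM in Car-1. Against Hutu80 it was lower, with a log2 difference of -1.05 ± 0.34 (adjusted p = 0.0191), and the difference of 0.83 from Car-1 did not pass (adjusted p = 0.0534). miR-182-5p, of the cluster of miR-183, miR-96 and miR-182 known from sensory organs and many tumours, was higher by 1.03 ± 0.24 (adjusted p = 0.00124). It differed from Car-1 by 1.66 ± 0.29 (adjusted p = 7.82e-05), while the difference of 0.40 from Hutu80 did not pass (adjusted p = 0.275).

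Many of the miRNAs that were lowest in MDST8 were the rarer arms of their hairpins. miR-92a-1-5p, the minor arm of the miR-92a hairpin in the miR-17-92 cluster (chr13:91351314-91351391, plus strand, within MIR17HG), had 133 and 56.5 CPM in MDST8, against 4321 and 9936 CPM in Hutu80 and 2056 and 3029.8 CPM in Car-1. Every MDST8 value was at least 15 times below every other, and the log2 difference was -5.48 ± 0.45 (adjusted p = 7.44e-10). miR-92a-2-5p, from the second miR-92a hairpin on chromosome X, had 9.52 and 18.8 CPM in MDST8, against 777 and 1671 CPM in Hutu80 and 1052 and 995 CPM in Car-1, with -6.25 ± 0.64 (adjusted p = 3.6e-08). miR-365a-5p had 19 and 12.6 CPM in MDST8, against 1663 and 1848 CPM in Hutu80 and 967 and 875 CPM in Car-1, with -6.29 ± 0.69 (adjusted p = 1.13e-07). Its partner miR-365a-3p did not pass, at means of 107 CPM in MDST8, 107 CPM in Hutu80 and 82.2 CPM in Car-1. In Hutu80 and Car-1 the 5p arm was thus above the 3p sequence, and in MDST8 below it. That 3p sequence is shared with miR-365b and had the same counts under both names. Its level therefore cannot be divided between the miR-365a and miR-365b hairpins. miR-92b-5p had 3.17 and 34.6 CPM in MDST8, against 361 and 419.9 CPM in Hutu80 and 325 and 550.0 CPM in Car-1, with -4.41 ± 0.68 (adjusted p = 1.33e-05).

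Others were at or near 0 in MDST8. miR-345-3p had 1 and 0 counts in MDST8, against 20 and 38 in Hutu80 and 134 and 78 in Car-1. The pooled unscaled CPM was 362 (95% interval 64.3 to 14333) times higher in the 4 Hutu80 and Car-1 libraries. miR-128-1-5p had 2 and 0 counts in MDST8, against 32 and 73 in Hutu80 and 35 and 27 in Car-1, a ratio of 112 (95% interval 30.5 to 931) in the same direction. miR-363-5p had 1 and 0 counts, against 5 and 22 in Hutu80 and 29 and 19 in Car-1, a ratio of 100.4 (95% interval 17.5 to 4019). All 3 passed the test, with adjusted p of 2.75e-07, 5.53e-06 and 0.000527. The entries miR-4443, miR-5100 and miR-4448 were lower, with log2 differences of -5.48 ± 0.58, -4.59 ± 0.74 and -4.11 ± 0.73 (adjusted p = 5.21e-08, 5.26e-05 and 7.3e-05). In MDST8 they averaged 20.5, 22.1 and 15.8 CPM, in Hutu80 939.8, 276 and 205 CPM, and in Car-1 925, 1065 and 381 CPM.

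Leaving out MDST8 replicate 1 moved the difference of miR-92a-1-5p to -6.16 and of miR-92b-5p to -3.50. Leaving out MDST8 replicate 2 moved that of miR-92b-5p to -6.76 and of miR-4448 to -4.77. Without Hutu80 replicate 2 it was -4.86 for miR-92a-1-5p, -5.63 for miR-92a-2-5p and -4.60 for miR-4443, and without Car-1 replicate 2 it was -3.81 for miR-92b-5p. All kept their calls.

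Epithelial miRNAs were low in MDST8. For the lists below, the share of all 318 tested miRNAs was 19.2% higher and 25.8% lower. Of the miR-200 family, 5 of 7 tested members were lower and none was higher, with a median of -1.78, that is -1.39 relative to all tested miRNAs. miR-200c-3p had 4153 and 3056 CPM in MDST8, against 8030.2 and 6559.6 CPM in Hutu80 and 14089 and 26209 CPM in Car-1, with -1.75 ± 0.30 (adjusted p = 4.42e-05). miR-200b-3p had 1200.1 and 842 CPM in MDST8, against 2155 and 2301 CPM in Hutu80 and 13089 and 14119 CPM in Car-1, with -2.43 ± 0.29 (adjusted p = 2.32e-07). For both miRNAs MDST8 was lowest, Hutu80 intermediate and Car-1 highest, with no overlap of libraries between lines. miR-200a-3p had 133 and 109.9 CPM in MDST8, against 175 and 176 CPM in Hutu80 and 2589 and 1105 CPM in Car-1. Its difference of -2.23 ± 0.37 (adjusted p = 3.97e-05) reflected Car-1 (-3.92, adjusted p = 4.53e-08), as the one from Hutu80 was -0.53 ± 0.44 (adjusted p = 0.352). All 7 tested members were lower against Car-1 and 2 against Hutu80. The difference between Hutu80 and Car-1 itself passed for 6 of them, all but miR-141-3p, with adjusted p from 1.3e-06 for miR-200b-3p to 0.00246 for miR-429.

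The family made up 0.520% and 0.424% of counts in MDST8, against 1.33% and 1.09% in Hutu80 and 4.36% and 6.16% in Car-1. In HT55, SW1116 and RCM-1 miR-200c-3p alone had 68502 to 104998 CPM. The defining epithelial markers were thus present in MDST8, at the lowest level of the series for miR-200c-3p. miR-429 had 6.35 and 18.8 CPM in MDST8, against 10.9 and 33.6 CPM in Hutu80 and 236 and 135 CPM in Car-1, with a call at -2.35 ± 0.67 (adjusted p = 0.00656), but gave -1.51 (adjusted p = 0.254) without Hutu80 replicate 2, -1.72 (adjusted p = 0.0933) without MDST8 replicate 1 and -3.23 without MDST8 replicate 2. miR-200b-5p (-1.78, adjusted p = 0.00407) gave -1.04 (adjusted p = 0.0717) without Car-1 replicate 2, -1.29 (adjusted p = 0.0783) without MDST8 replicate 2 and -2.39 without MDST8 replicate 1. Taking the 4 Hutu80 and Car-1 libraries as a single group ended all 5 calls of the family, at adjusted p of 0.0583 to 0.117. Without Car-1 replicate 1 the difference of miR-200a-3p was -1.60, and without Car-1 replicate 2 that of miR-200c-3p was -1.14. miR-141-3p (-1.43, adjusted p = 0.0889) and miR-200a-5p (-0.97, adjusted p = 0.441) did not pass.

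Of the list of miR-192, miR-194, miR-215 and miR-375, miRNAs of gut epithelium, 3 of 5 tested were lower and none higher. miR-375-3p, also a miRNA of endocrine cells, had 254 and 185 CPM in MDST8, against 394 and 571 CPM in Hutu80 and 597 and 755 CPM in Car-1, with -1.38 ± 0.29 (adjusted p = 0.000475). miR-192-5p had 721 and 503 CPM in MDST8, against 1225 and 1025 CPM in Hutu80 and 914 and 1179.9 CPM in Car-1, and all MDST8 values were the lowest of these 6 libraries. Its difference of -0.83 ± 0.26 (adjusted p = 0.012) was -0.37 (adjusted p = 0.304) without Car-1 replicate 2, -0.55 (adjusted p = 0.273) without MDST8 replicate 2, -0.46 (adjusted p = 0.236) without Hutu80 replicate 1 and -0.61 (adjusted p = 0.103) without Hutu80 replicate 2. It was also lost without a filter on low counts (adjusted p = 0.17). miR-194-3p (-1.77 ± 0.49, adjusted p = 0.00537) gave -1.22 (adjusted p = 0.157) without MDST8 replicate 2 and -2.45 without MDST8 replicate 1. miR-194-5p and miR-215-5p did not pass (adjusted p = 0.159 and 0.692). The list took 0.126% and 0.108% of counts in MDST8, against 0.285% and 0.257% in Hutu80 and 0.293% and 0.362% in Car-1.

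Of the squamous miRNAs, 2 of 3 tested were lower in MDST8 and none higher. miR-205-5p had 50.8 and 31.4 CPM in MDST8, against 120.3 and 126 CPM in Hutu80 and 5502 and 2715 CPM in Car-1. Its log2 difference was -4.10 ± 0.46 (adjusted p = 1.13e-07) against the mean, -1.57 ± 0.53 (adjusted p = 0.0212) against Hutu80 and -6.63 ± 0.50 (adjusted p = 5.36e-10) against Car-1. Hutu80 itself differed from Car-1 by -5.05 ± 0.48 (adjusted p = 5.28e-08). miR-203a-3p had 269.9 and 173 CPM in MDST8, against 328 and 395 CPM in Hutu80 and 622 and 695 CPM in Car-1, with -1.14 ± 0.29 (adjusted p = 0.0028), but lost its call without MDST8 replicate 2 (adjusted p = 0.123), Car-1 replicate 2 (0.055) or Hutu80 replicate 2 (0.0525).

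Other lists held members of both directions. In the NF-kB-linked list of miR-146 and miR-155, 1 of 3 tested was higher (miR-146a-5p) and 1 lower, with a median of -0.02 that turned positive with RLE size factors (0.10) and without the 10 most abundant miRNAs (0.25). miR-155-5p, induced in activated immune cells, had 5746 and 3688 CPM in MDST8, against 10043 and 8113 CPM in Hutu80 and 9224 and 12229 CPM in Car-1. Its difference was -1.06 ± 0.30 (adjusted p = 0.00579), and it was -0.74 (adjusted p = 0.122) without MDST8 replicate 2, -0.69 (adjusted p = 0.0665) without Hutu80 replicate 1 and -0.61 (adjusted p = 0.0599) without Car-1 replicate 2. Of the miR-10, miR-196 and miR-615 miRNAs of the HOX clusters, 2 of 6 were higher (miR-10b-5p and miR-10a-3p) and 1 lower. miR-10a-3p lost its call with library totals as the only scaling (adjusted p = 0.111) and with limma-trend (0.0911). The lower one was miR-196b-5p, at 145 CPM in MDST8, 286 CPM in Hutu80 and 431 CPM in Car-1 (log2 difference -1.27 ± 0.35, adjusted p = 0.00531), and this gave -1.13 (adjusted p = 0.0888) without MDST8 replicate 2, -0.86 (adjusted p = 0.0791) without Car-1 replicate 2 and -0.94 (adjusted p = 0.0518) without Hutu80 replicate 1. The median of this list, 0.17, was negative with library totals as the only scaling, and so were the medians of the let-7 list (0.01), the miR-99b, let-7e and miR-125a list (0.24) and the neural list (0.39).

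Within the miR-99/100, let-7c and miR-125b list, 2 of 6 were higher and none lower. Besides miR-100-5p this was miR-125b-5p, with 5337 and 7903 CPM in MDST8, against 799 and 1949 CPM in Hutu80 and 3702 and 3695 CPM in Car-1, a log2 difference of 1.55 ± 0.28 (adjusted p = 9.39e-05) that was 2.25 without Hutu80 replicate 2. In the let-7 list, let-7i-5p rose (16462 and 15388 CPM in MDST8, against 5076 and 4443 CPM in Hutu80 and 5254 and 5299.7 CPM in Car-1), by 1.67 ± 0.22 on the log2 scale (adjusted p = 1.37e-06), let-7d-3p fell (-1.65 ± 0.34, adjusted p = 0.000416), and 8 others gave no call. The far more abundant let-7a-5p and let-7f-5p did not pass. In the miR-34 list 1 of 2 tested was higher, in the miR-21 list both arms were (2 of 2, but miR-21-3p lost its call without MDST8 replicate 2, adjusted p = 0.0713, and with limma-trend, 0.2), and in that of miR-183, miR-96 and miR-182 2 of 3 were. Both arms of miR-31 (2 of 2) and 3 of the 4 arms of miR-221 and miR-222 were higher. Of the 8 tested miR-30 miRNAs, 2 were lower and none higher, close to the 25.8% lower over all tested. Against Hutu80 2 were higher and 5 lower, and against Car-1 2 were higher and 1 lower. On the X-linked list around miR-532, miR-500, miR-502 and miR-660, 3 of 8 were lower, and on that of miR-224 and miR-452 1 of 2. None of these calls was stable. miR-532-5p lost its call without any 1 of the 6 libraries (adjusted p from 0.0503 to 0.329), and miR-224-5p without any except MDST8 replicate 1 (0.0692 to 0.303). miR-501-3p lost it without Car-1 replicate 1, MDST8 replicate 1 or Hutu80 replicate 2 (0.0945, 0.158 and 0.191), and miR-501-5p without Car-1 replicate 1, Hutu80 replicate 1 or either MDST8 library (0.0526 to 0.0797). Both directions occurred on the lists of miR-193 and miR-365 (1 higher and 1 lower of 5) and of miR-99b, let-7e and miR-125a (1 higher and 1 lower of 4). Of the imprinted DLK1-DIO3 cluster 1 of 6 was lower, miR-409-3p, whose call was lost without any 1 of the 6 libraries (adjusted p from 0.11 to 0.277), with RLE size factors (0.0569) and in DESeq2 (0.0822), and of the miR-506 to miR-514 cluster 0 of 3 passed.

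**Figure D3:**
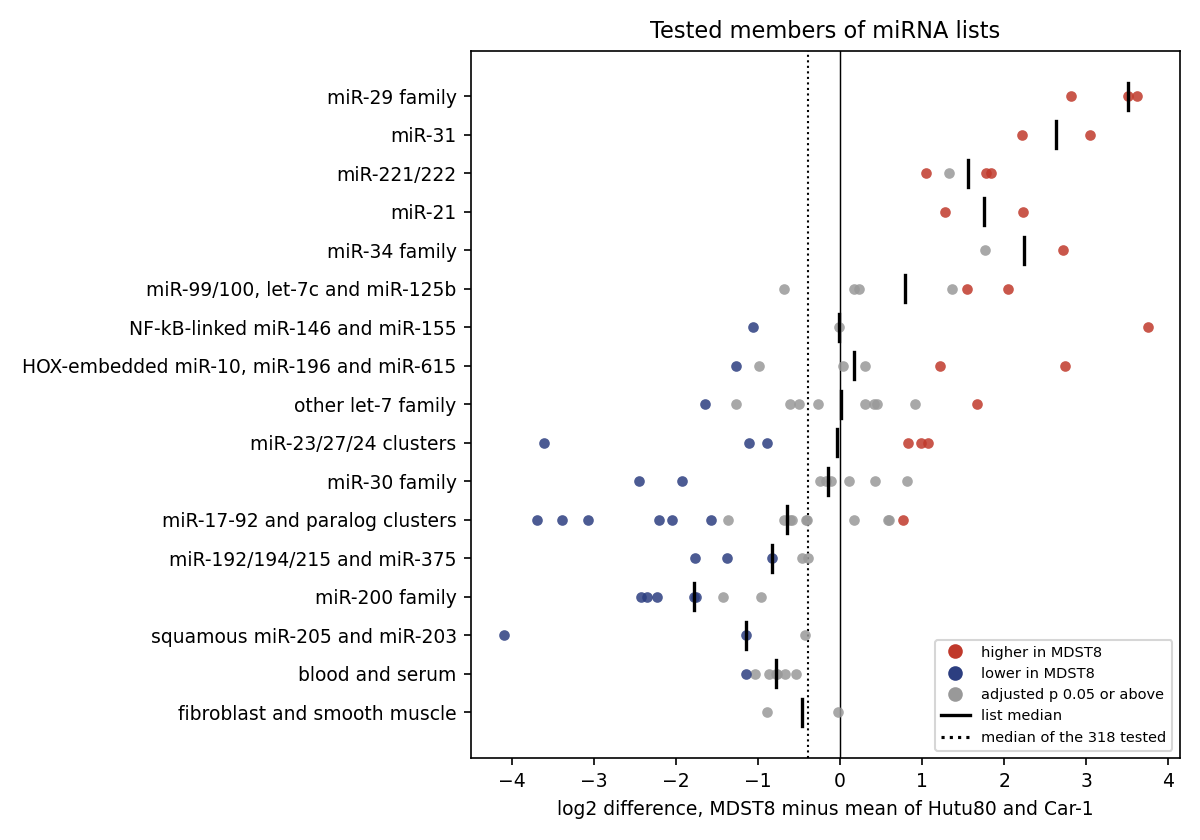
Log2 difference of every tested member of 17 miRNA lists, MDST8 minus the mean of Hutu80 and Car-1, 1 line per list (red higher, blue lower, grey adjusted p of 0.05 or above; bars are list medians, the dotted line the median of all 318 tested, -0.39). The miR-29 list lies furthest right, with a median of 3.51, and the miR-200 list has no member above zero and a median of -1.78.

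Few markers of other tissues or of serum passed the test. Of 7 tested miRNAs of blood cells and serum, 5 had both MDST8 libraries below all 4 others, and 1 passed. Over all tested miRNAs, 28.9% lay below all 4 and 25.8% were called lower. miR-486-5p, of red blood cells, had 1486 and 1159 CPM in MDST8, against 3271 and 2444 CPM in Hutu80 and 2808 and 3205 CPM in Car-1, with -1.15 ± 0.28 (adjusted p = 0.00187), but not without MDST8 replicate 2 (adjusted p = 0.0624). The red-cell miRNA miR-451a averaged 227 CPM in MDST8, 306 CPM in Hutu80 and 357 CPM in Car-1 and did not pass (adjusted p = 0.24). This list took 0.212% and 0.187% of counts in MDST8, against 0.568% and 0.424% in Hutu80 and 0.557% and 0.662% in Car-1, and its part in the results was not tested. Of the 2 tested fibroblast and smooth muscle miRNAs none passed, and miR-143-5p, miR-199b-5p and miR-214-3p were at 0 in all 6 libraries. The muscle miRNA miR-1-3p had 50.8 and 34.6 CPM in MDST8, against 76.6 and 118 CPM in Hutu80 and 207 and 380.0 CPM in Car-1 and was lower, with -1.98 ± 0.52 (adjusted p = 0.00377), or -1.38 without Car-1 replicate 2. It passed against Car-1 (adjusted p = 0.000327) but not against Hutu80 (adjusted p = 0.128), nor with the 4 libraries as 1 group (adjusted p = 0.0583). None of the 3 endothelial and liver miRNAs passed, and of the 5 neural ones only miR-138-5p did, while miR-124-3p was at 0.

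The paralogous clusters miR-17-92, miR-106a-363 and miR-106b-25 encode miRNAs that promote proliferation and survival. Of their 16 tested miRNAs on the list, 1 was higher and 6 were lower. The lower ones were miR-106a-5p, miR-20b-5p and miR-363-3p of the chromosome X cluster, miR-93-3p and miR-25-5p of the chromosome 7 cluster, and miR-92a-3p. The share lower, 6 of 16, compares with 25.8% of all tested. Counting also miRNAs that are not on the list, the cluster on chromosome X (chrX:134169378-134170278, GRCh38, minus strand) had all 5 tested miRNAs placed there by RefSeq lower. miR-363-3p had 432 and 160.2 CPM in MDST8, against 5394 and 7022 CPM in Hutu80 and 2686 and 380.0 CPM in Car-1. miR-106a-5p had 28.6 and 47.1 CPM in MDST8, against 416 and 672 CPM in Hutu80 and 333 and 45 CPM in Car-1, and miR-20b-5p, of the same cluster but not in the RefSeq table, had 175 and 119 CPM in MDST8, against 2713 and 4191 CPM in Hutu80 and 1845 and 260.0 CPM in Car-1. The Car-1 libraries differed about 7-fold in each of these 3, and Car-1 replicate 2 fell close to or within the MDST8 range. The differences were -3.38 ± 0.86 for miR-363-3p (adjusted p = 0.0106), -3.08 ± 0.68 for miR-106a-5p (adjusted p = 0.000753) and -3.70 ± 0.68 for miR-20b-5p (adjusted p = 0.000592).

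Without Car-1 replicate 1 these became -2.14, -1.77 and -2.44, all still called. miR-363-3p lost its call without MDST8 replicate 1, MDST8 replicate 2 or Hutu80 replicate 2 (adjusted p = 0.0516, 0.164 and 0.0514). Of the minor arms of the same cluster, miR-92a-2-5p (1052 and 995 CPM in Car-1) and miR-363-5p (118 and 95 CPM) did not share this gap. The minor arm miR-20b-3p moved with the Car-1 library left out. Its log2 difference of -4.06 was -3.08 without Car-1 replicate 1 and -4.06 without Car-1 replicate 2. Against Hutu80 the differences of miR-363-3p, miR-106a-5p and miR-20b-5p were -4.39 ± 0.94, -3.83 ± 0.74 and -4.55 ± 0.74 (adjusted p = 0.00578, 0.000244 and 0.000261). There the libraries of both lines did not overlap. miR-18b-5p, with 2 and 0 counts in MDST8, against 15 and 9 in Hutu80 and 6 and 2 in Car-1, passed (adjusted p = 0.0164) but lost its call without any 1 of the 6 libraries (adjusted p from 0.0538 to 0.252).

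The main miR-17-92 cluster on chromosome 13 behaved otherwise. Of its 6 tested miRNAs placed there, only miR-92a-1-5p passed. miR-17-5p averaged 561 CPM in MDST8, 949.6 CPM in Hutu80 and 769 CPM in Car-1 and miR-20a-5p 847 CPM in MDST8, 1248 CPM in Hutu80 and 1009.7 CPM in Car-1, and neither passed (adjusted p = 0.102 and 0.261). miR-92a-3p had 16738 and 16537 CPM in MDST8, against 59023 and 71450.1 CPM in Hutu80 and 40628 and 34123 CPM in Car-1, with -1.57 ± 0.26 (adjusted p = 3.29e-05), and the other 6 libraries held 42536 to 129993 CPM, so MDST8 had the lowest level of the series. miR-25-3p of the chromosome 7 cluster (chr7:100093560-100093643, in an intron of MCM7) was the higher one, with 19033 and 17882 CPM in MDST8, against 10437 and 10751 CPM in Hutu80 and 12187 and 9859 CPM in Car-1.

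Of 31 seed families with at least 2 tested members in the RefSeq table, 4 held called members of both directions, 4 had all members higher and 3 all lower. In the family with seed AUUGCAC, miR-25-3p rose by 0.77 ± 0.23 (adjusted p = 0.0078) while miR-92a-3p, miR-92b-3p (-1.13 ± 0.28, adjusted p = 0.00209) and miR-363-3p fell. miR-92b-3p had 1279 and 1363 CPM in MDST8, against 2341 and 2620.5 CPM in Hutu80 and 2735 and 3999.8 CPM in Car-1. The summed level of the family was 37482 and 35942 CPM in MDST8, against 77195 and 91843 CPM in Hutu80 and 58236 and 48362 CPM in Car-1. It was thus lower in MDST8 in all pairs of libraries, and miR-92a-3p held the largest part of it except in MDST8, where miR-25-3p exceeded it. The call of miR-25-3p was lost with library totals as the only scaling (adjusted p = 0.231) and without MDST8 replicate 1 (0.0503), and that of miR-92b-3p without Car-1 replicate 2 (0.0928).

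In the family with seed CAGUGCA, whose known targets include the DNA methyltransferase DNMT1, the members changed places. miR-152-3p had 3099 and 2975 CPM in MDST8, against 274 and 235 CPM in Hutu80 and 699 and 1125 CPM in Car-1, with 2.66 ± 0.28 (adjusted p = 5.21e-08). miR-148b-3p had 3200.2 and 2902 CPM in MDST8, against 2155 and 2159 CPM in Hutu80 and 1382 and 960.0 CPM in Car-1, with 0.94 ± 0.25 (adjusted p = 0.00453). miR-148a-3p had 1889 and 1304 CPM in MDST8, against 3457 and 2856 CPM in Hutu80 and 3548 and 3465 CPM in Car-1, with -1.06 ± 0.28 (adjusted p = 0.00384). miR-148a-3p was thus the least abundant of the 3 in MDST8 and the most abundant in Hutu80 and Car-1. Their summed level, 8188 and 7180.3 CPM in MDST8, against 5886 and 5249 CPM in Hutu80 and 5628 and 5549.7 CPM in Car-1, differed by less than any of them. miR-148b-3p lost its call with library totals as the only scaling (adjusted p = 0.14), and miR-148a-3p without MDST8 replicate 2 (0.107) or Hutu80 replicate 1 (0.0621).

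The miR-23 and miR-27 families are each made of a copy in the chromosome 19 cluster (chr19:13836587-13836659 for miR-23a) and a copy in the chromosome 9 cluster (chr9:95085208-95085304 for miR-23b), and the copies moved apart. miR-23a-3p had 7905 and 8924 CPM in MDST8, against 3621 and 4829 CPM in Hutu80 and 4519 and 4075 CPM in Car-1, with 0.98 ± 0.22 (adjusted p = 0.000898). miR-23b-3p had 1194 and 1065 CPM in MDST8, against 1116 and 1537 CPM in Hutu80 and 3649 and 5239.7 CPM in Car-1, with -1.11 ± 0.27 (adjusted p = 0.00193). The chromosome 9 copy differed from Car-1 (-1.98, adjusted p = 1.66e-05), its difference from Hutu80 was -0.24 ± 0.30 (adjusted p = 0.551), and Hutu80 and Car-1 differed from each other (adjusted p = 0.000199).

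miR-27a-3p had 1651 and 1602 CPM in MDST8, against 394 and 629.9 CPM in Hutu80 and 1564 and 750.0 CPM in Car-1, with 1.07 ± 0.31 (adjusted p = 0.00661). miR-27b-3p had 1267 and 908 CPM in MDST8, against 1138 and 1033 CPM in Hutu80 and 4824 and 2699.9 CPM in Car-1, with -0.89 ± 0.30 (adjusted p = 0.0172), and 0.00 ± 0.34 against Hutu80. For the chromosome 19 copy the difference was 1.66 ± 0.38 from Hutu80 (adjusted p = 0.00147) and 0.49 ± 0.36 from Car-1 (adjusted p = 0.287). miR-24-3p, encoded in both clusters, was higher by 0.83 ± 0.27 (adjusted p = 0.0156). Of the 6 tested miRNAs of these clusters 3 were higher and 3 lower. The third lower one was miR-27b-5p (log2 difference -3.61), with only 0 and 5 counts in MDST8. Its difference ran from -7.54 to -2.59 when each library was left out. No higher call remained when only library totals were used for scaling. There miR-23a-3p, miR-27a-3p and miR-24-3p had adjusted p of 0.0527, 0.0959 and 0.252. miR-23b-3p lost its call without Car-1 replicate 2 (0.106) or Hutu80 replicate 2 (0.0618), miR-24-3p without MDST8 replicate 2 (0.0758), and miR-27b-3p without any library except MDST8 replicate 1 (0.0681 to 0.307).

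**Figure D4:**
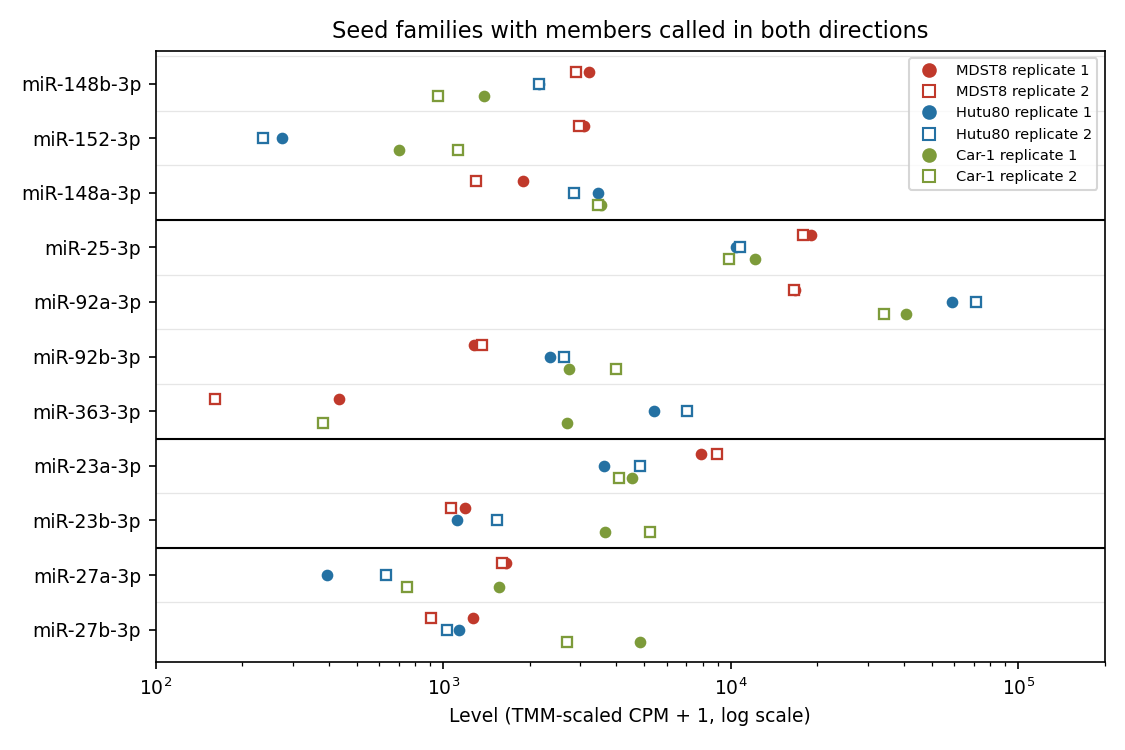
Level in each of the 6 libraries (TMM-scaled CPM + 1, log axis; circles replicate 1, squares replicate 2) of the 11 miRNAs in the 4 seed families with called members of both directions, families divided by black lines. In the second family MDST8 lies right of the other lines for miR-25-3p (19033 and 17882 CPM) and left of them for miR-92a-3p (16738 and 16537 CPM), and for miR-23b-3p and miR-27b-3p MDST8 lies with Hutu80 and apart from Car-1.

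The families with a single direction are those in which every tested member matched in RefSeq was called alike. Tested miRNAs without such a match were not counted, so a whole seed may not be covered. With seed AAUACUG, miR-200b-3p, miR-200c-3p and miR-429 summed to 5359 and 3917 CPM in MDST8, against 10196 and 8895 CPM in Hutu80 and 27413 and 40463 CPM in Car-1. With seed GGGACUU, miR-365a-5p and miR-365b-5p were both lower. miR-365b-5p had 0 and 1 counts in MDST8, against 7 and 11 in Hutu80 and 22 and 11 in Car-1, a pooled unscaled CPM 68.3 (95% interval 11.7 to 2749.7) times higher in the 4 Hutu80 and Car-1 libraries (adjusted p = 0.00176). The arms come from different chromosomes (16 and 17) and have 3p partners of identical sequence.

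Arms of the same hairpin could be compared for 40 hairpins. Both arms were called in 9, with the same direction in 8 and opposite directions in 1, exactly 1 arm was called in 17 and none in 14. The 17 include miR-365a and miR-365b, whose 3p arms are 1 sequence with the same counts. The opposite pair was miR-25, whose 5p arm had 57.1 and 53.4 CPM in MDST8, against 252 and 403 CPM in Hutu80 and 191 and 130.0 CPM in Car-1, a log2 difference of -2.05 ± 0.52 (adjusted p = 0.00261), while its 3p arm rose. In miR-92b and miR-363 both arms fell and the minor 5p arm by more, at -4.41 and -5.77. In miR-193b only the 5p arm fell (-3.24 ± 0.68, adjusted p = 0.000475), at a mean of 26.8 CPM in MDST8, 208 CPM in Hutu80 and 315 CPM in Car-1, while miR-193b-3p averaged 226 CPM in MDST8, 179.9 CPM in Hutu80 and 175 CPM in Car-1. The difference of miR-193b-5p was -2.31 without Hutu80 replicate 2, -2.58 without MDST8 replicate 1 and -4.24 without MDST8 replicate 2. In miR-30a the rarer 3p arm had 5534 and 4287 CPM in MDST8, against 41737 and 45086 CPM in Hutu80 and 9419.5 and 6529.7 CPM in Car-1. Its difference was -1.92 ± 0.27 (adjusted p = 4.26e-06), with -3.14 ± 0.31 against Hutu80 (adjusted p = 3.35e-08) and -0.70 ± 0.29 against Car-1 (adjusted p = 0.0546).

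**Figure D5:**
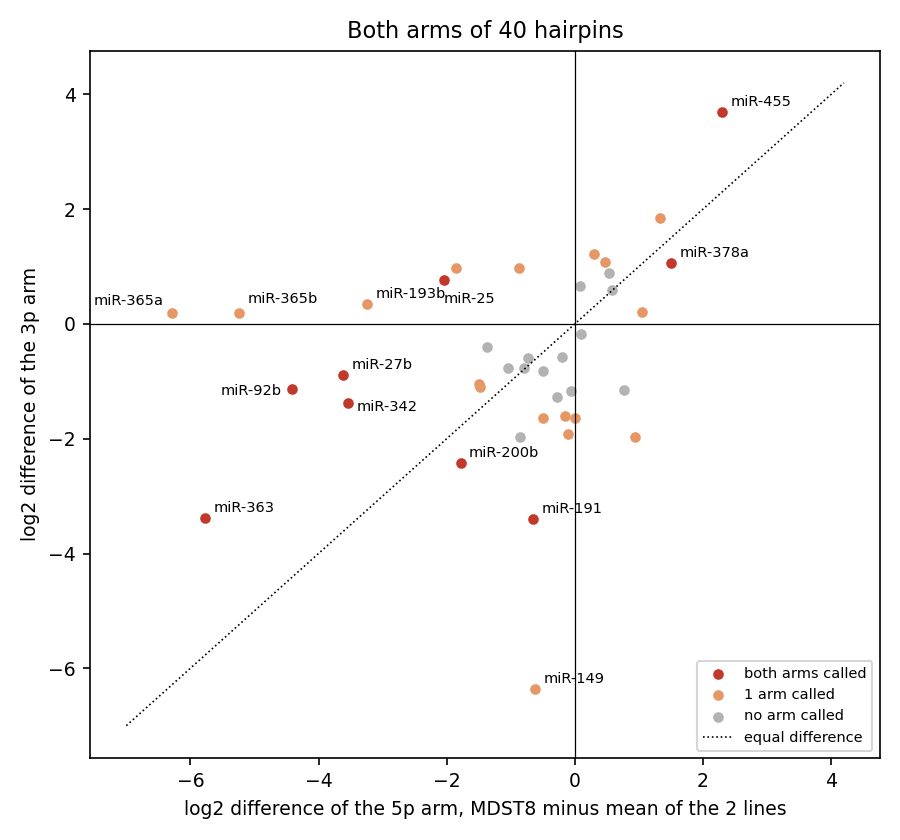
Log2 difference of the 3p arm against that of the 5p arm for 40 hairpins with both arms tested, MDST8 minus the mean of Hutu80 and Car-1 (red both arms called, orange 1 arm, grey none; the dotted line marks equal differences). miR-25 is the hairpin with arms called in opposite directions, and miR-365a and miR-365b lie far left near zero, since only their 5p arms fell. Their 3p arms have the same sequence and the same counts, so the 3p value cannot be divided between these hairpins.

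Over 169 hairpin names with both arms in the count table and at least 1 arm tested, the arm with fewer counts in the series took 2.22% and 2.29% of the counts of both arms in MDST8, against 9.56% and 10.2% in Hutu80 and 4.06% and 3.39% in Car-1. MDST8 thus had the smallest share of minor arms of these lines, while the 6 libraries of the other lines held 1.08% to 2.01%. A large part of these counts was miR-30a-3p alone. It gave 3815 of 5287 and 5368 of 7524 minor-arm counts in Hutu80, and 2318 of 5466 and 1306 of 3544 in Car-1. In MDST8 it gave 1743 of 6095 and 1365 of 5580. The shares without miR-30a were not computed. Of 58 tested minor arms, 8 were higher and 18 lower in MDST8, with a median of -0.88, against 33 higher and 38 lower of 169 major arms, with a median of -0.29. Among the 8 minor arms with more than 40% guanine, 6 were lower and none was higher, with a median of -3.83, and among all 50 tested miRNAs with more than 40% guanine 20 were lower and 8 higher. This look at arms and guanine was made after the values were seen. The part of base composition in these differences was not tested.

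Some differences came from Hutu80 or Car-1 alone. miR-1262, from an intron of WLS (chr1:68183518-68183610), had 38.1 and 40.8 CPM in MDST8, against 1258 and 2133 CPM in Hutu80 and 28.4 and 65 CPM in Car-1. Its difference was -5.41 ± 0.54 against Hutu80 (adjusted p = 3.35e-08) and -0.21 ± 0.57 against Car-1 (adjusted p = 0.778), and Hutu80 exceeded Car-1 (adjusted p = 2.1e-07). The difference from the mean of both lines, -2.81, was -2.11 without Car-1 replicate 2. miR-4497 averaged 170.1 CPM in MDST8, 19.3 CPM in Hutu80 and 114 CPM in Car-1. Its difference was 3.12 ± 0.98 against Hutu80 (adjusted p = 0.0146), and 1.86 ± 0.69 against the mean (adjusted p = 0.0316) became 0.91 (adjusted p = 0.431) without MDST8 replicate 2, 2.50 without MDST8 replicate 1 and 2.52 without Car-1 replicate 2. miR-183-5p had 17858 and 15338 CPM in MDST8, against 17745 and 14849 CPM in Hutu80 and 6778 and 8109.6 CPM in Car-1. It differed from Car-1 by 1.16 ± 0.28 (adjusted p = 0.00213) and from Hutu80 by 0.03 ± 0.28 (adjusted p = 0.982). Its difference from the mean, 0.59 ± 0.24 (adjusted p = 0.0448), was lost with library totals as the only scaling (adjusted p = 0.607) and without either MDST8 library (0.214 and 0.0798).

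The MDST8 values were also set against the other 6 libraries, from HT55, SW1116 and RCM-1, which did not enter the contrast. Of the 54 higher miRNAs that lay above the 4 Hutu80 and Car-1 libraries and reached 100 CPM, 39 were above all 10 other libraries. Of the corresponding 54 lower miRNAs, 21 were below all 10. miR-146a-5p (other lines 796 to 2813 CPM), miR-29a-3p (1337 to 4601 CPM), miR-181a-5p (2019.8 to 3426 CPM) and miR-31-5p (122 to 269.6 CPM) were among the 39, and miR-92a-3p and miR-200c-3p among the 21. miR-205-5p was not among the 21, since the other 6 libraries ranged from 47.3 to 727 CPM. miR-363-3p, lower in MDST8 than in Hutu80, was higher there than in the other 6 libraries (28.2 to 116 CPM).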

How the data were processed

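Vesicle small RNA of 6 lines (12 libraries) was prepared with IsoSeek, a low-input protocol that tags molecules with unique identifiers, per the labels' protocols. The deposited counts are whole-number counts of 1636 mature miRNAs, not normalised, per the column values. Per the submitters' processing notes the genome build was hg38, while the sources used here do not give the aligner, the counter or any collapsing of identifiers. The authors' deposited log2 values equal log2(CPM + 1) of the counts over all 19632 cells (largest difference 5e-14). Without collapsing, counts are not independent molecules, so intervals cover counting error only.

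Libraries were grouped by line name. All 12 entered 1 fit with a mean per line in edgeR 4.0.16 (R 4.3.3; filterByExpr, TMM, glmQLFit with robust estimation, glmQLFTest), which kept 318 miRNAs with 99.71% of the counts (common biological coefficient of variation 0.304). Contrasts were MDST8 against the mean of Hutu80 and Car-1, against each, and Hutu80 against Car-1, with Benjamini-Hochberg adjustment per contrast and a threshold of 0.05. SE is the log2 difference divided by the square root of F. Totals per library ran from 71831 to 339853 in the 6 libraries. For miRNAs with few counts the ratio of pooled unscaled CPM is given with an exact 95% interval. On data simulated for the first contrast (290 miRNAs tested), recovery was 6 of 18 at a 2-fold change, 18 of 20 at a 4-fold change and 17 of 18 at an 8-fold change, with 1 false call among 234 unchanged miRNAs. The simulation gave every miRNA the same dispersion, and all lines except MDST8 the same means. The measured data differ in both respects, so these rates may not hold for them.

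Named were the 15 called miRNAs with the largest difference in each direction (both MDST8 libraries outside the other 4, at least 100 CPM), up to 5 per direction with MDST8 outside the range of only 1 of the lines, the 10 most abundant of MDST8, and up to 6 members per list. Other named miRNAs, among them members of split seed families, partner arms and those in the closing section, were chosen after their values were seen. The members and the lists were chosen with earlier results of these data known. Sequences and loci are from RefSeq GRCh38.p14, which matched 258 of the 318, and host genes from GENCODE 29. Alternatives were RLE size factors, library totals, no filter, 10 CPM in 2 libraries, DESeq2 1.42.0, limma-voom and limma-trend (limma 3.58.1), a replicate block, leaving out the 10 most abundant miRNAs, only the 6 libraries, the 4 Hutu80 and Car-1 libraries as 1 group, and leaving out each library, which takes the spread of the lone library from the remaining lines.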

Additional observations from a re-analysis of the deposited data

How the results depend on the processing

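Of 115 named miRNAs, 102 passed in the comparison of MDST8 with Hutu80 and Car-1, and 47 of these kept their call in each of the 17 alternatives that tested them. miR-222-3p and miR-92a-3p, which are among the 47, were not in the fit without the 10 most abundant miRNAs. No named miRNA with a call changed direction. Most calls were lost with the 4 Hutu80 and Car-1 libraries as 1 group (36), and next most without MDST8 replicate 2. Higher miRNAs in that comparison numbered 36 with limma-trend (fitted to the deposited log2 values) and 38 with the 4 libraries as 1 group, which gave 43 lower. Against Hutu80, higher miRNAs numbered 34 with library totals as the only scaling and 36 with limma-trend, and lower miRNAs 40 with no filter and 53 without the 10 most abundant miRNAs. Against Car-1, higher miRNAs numbered 38 with library totals and 33 with limma-trend, and lower miRNAs 116 and 110. Hutu80 had 12 higher miRNAs than Car-1 with no filter. The causes of these shifts were not tested. Leaving out each library in turn gave 49 to 84 higher and 50 to 61 lower miRNAs (367 to 389 tested), 41 to 74 and 35 to 57 against Hutu80, 46 to 72 and 47 to 61 against Car-1, and 16 to 31 and 18 to 31 for Hutu80 against Car-1.

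Differences that changed sign belonged to miRNAs without a call. With library totals they were -0.022 for let-7a-5p, -0.15 for let-7f-5p and -0.14 for miR-10a-5p, and with limma-trend -0.14 for let-7f-5p and -0.14 for miR-10a-5p. For miR-30a-5p the difference was 0.028 with RLE size factors, 0.13 with no filter and 0.028 in DESeq2. When each library was left out, miR-30a-5p ran from -0.22 to 0.55, miR-200a-5p from -1.05 to 0.90 and miR-215-5p from -1.05 to 0.53. With the replicate number as a block, 64 miRNAs were higher and 82 lower and no named call was lost. Deviations of same-numbered libraries correlated at 0.155 (MDST8 and Hutu80), -0.0289 (MDST8 and Car-1) and 0.09 (Hutu80 and Car-1). With 2 libraries per line, these values cannot decide whether same-numbered libraries were prepared together. With at most 100531 counts in a Hutu80 library, levels near 13.9 CPM there rest on 1 count.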

Other observations

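The miRNAs in this part were chosen after their values were seen. The miR-181 family, known for its roles in lymphocyte development and signalling, had 2 of 3 tested 5p members higher in MDST8, and the 3p arms of miR-181a were higher as well. The other 5p member, miR-181d-5p, did not pass (adjusted p = 0.871). miR-181a-5p, which is made from hairpins on chromosomes 1 and 9, had 17811 and 15639 CPM in MDST8, against 2855 and 3032 CPM in Hutu80 and 3263 and 2279.9 CPM in Car-1, a log2 difference of 2.55 ± 0.23 (edgeR quasi-likelihood test, adjusted p = 3.75e-09). miR-181b-5p had 6315 and 6712 CPM in MDST8, against 1543 and 2285 CPM in Hutu80 and 1999 and 2185 CPM in Car-1, with 1.70 ± 0.24 (adjusted p = 3.54e-06). The rarer arms come from a known hairpin each. miR-181a-3p, of the chromosome 1 hairpin, averaged 555 CPM in MDST8, 195 CPM in Hutu80 and 113 CPM in Car-1, with 1.90 ± 0.39 (adjusted p = 0.000384). miR-181a-2-3p, of the chromosome 9 hairpin, had 937 and 945 CPM in MDST8, against 76.6 and 109 CPM in Hutu80 and 650.2 and 645 CPM in Car-1. Its difference of 1.93 ± 0.33 (adjusted p = 5.26e-05) was uneven, with 3.32 ± 0.45 against Hutu80 (adjusted p = 2.72e-06) and 0.54 ± 0.37 against Car-1 (adjusted p = 0.259), and its call was lost with the 4 Hutu80 and Car-1 libraries as 1 group (adjusted p = 0.26).

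miR-103a-3p and miR-107, which share a seed and lie in introns of the pantothenate kinase genes PANK2 and PANK3 (miR-103a) and PANK1 (miR-107), were both higher. miR-103a-3p had 7026 and 7240.0 CPM in MDST8, against 2341 and 3595 CPM in Hutu80 and 3206 and 3399.8 CPM in Car-1, with 1.19 ± 0.23 (adjusted p = 0.000224). miR-107, whose mature sequence is close to that of miR-103a-3p, had 302 and 267 CPM in MDST8, against 131 and 118 CPM in Hutu80 and 134 and 120.0 CPM in Car-1, with 1.17 ± 0.42 (adjusted p = 0.0255). The call of miR-107 was lost with library totals as the only scaling (0.73 (adjusted p = 0.168)), and it was 1.15 (adjusted p = 0.115) without MDST8 replicate 1 and 1.30 (adjusted p = 0.0735) without MDST8 replicate 2. The abundant miR-320a-3p took 0.215% and 0.333% of MDST8 counts, against 0.370% and 0.385% in Hutu80 and 0.347% and 0.557% in Car-1. Its share was thus not higher in MDST8. miR-320e, at a log2 difference of 1.28, did not pass. The rarer miR-320b, miR-320c and miR-320d together held 613 and 1024 CPM in MDST8, against 263 and 386 CPM in Hutu80 and 268 and 390.0 CPM in Car-1. All 3 passed, at 1.24 ± 0.36, 1.44 ± 0.40 and 1.31 ± 0.44 (adjusted p = 0.00715, 0.0056 and 0.0167). None of these 3 calls held without MDST8 replicate 2, the library with the higher level, where they were 0.81, 1.11 and 1.01 (adjusted p = 0.2, 0.103 and 0.188).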
